A study of Homo sapiens with 12 samples.

Results

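The genes described here are the 9 measured members of the MYC, MAX and MXD network of transcription factors: MYC, MAX, MXD1, MXD3, MXD4, MXI1, MNT, MLX and MLXIP. They were chosen by gene symbol, and the 61 transcript entries that carry 1 of these symbols were summed per gene, out of 100502 entries and 46639 symbols in the deposited table. Strand-specific RNA sequencing after depletion of ribosomal RNA was done on MOLM-13, a human acute myeloid leukaemia (AML) cell line that carries the MLL-AF9 fusion. Whether it was grown with GM-CSF is not settled, because the study's methods list only medium, antibiotics and serum for its cell lines. The 12 libraries formed 4 groups of 3: untreated cells, cells given 100 nM decitabine (DAC, which blocks the methylation of DNA), cells given 1 µM all-trans retinoic acid (ATRA, the ligand of the retinoic acid receptors) and cells given the same doses of both drugs (DAC+ATRA). The labels give 72 h for all treated groups but 96 h for the untreated group, while the design text names 72 h for the harvest, so time and treatment cannot be told apart if the labels hold. By the study's methods, DAC was given in daily pulses and ATRA with a later pulse, 48 h after the first, and there was no library of cells given the solvent alone. The replicates are technical triplicates of 1 cell line, so p-values measure only the spread within this experiment.

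MYC binds DNA as a dimer with MAX, mainly at the E-box CACGTG, and drives genes of ribosome production, nucleotide synthesis and cell growth. MXD1, MXD3, MXD4, MXI1 and MNT compete with MYC for MAX and repress genes at the same sites, the MXD proteins and MNT through the SIN3 and histone deacetylase complex. MLX is a relative of MAX that pairs with MLXIP (MondoA) and MLXIPL (ChREBP), which sense glucose metabolites, and with some of the MXD proteins. A fall of MYC together with a rise of MXD1 is the textbook picture of the network when myeloid cells differentiate, and MYC is a common driver of growth in AML.

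Values are normalised read counts, that is reads of a gene divided by a size factor of the library, and are given per library in the order of replicates 1 to 3 and as mean ± SD with n = 3. A change is the difference of log2(normalised count + 1) with its standard error (SE), and a gene was called when limma's p-value, adjusted by the Benjamini-Hochberg method over the 10642 protein-coding genes tested, was under 0.01. All 9 members passed the filter on low values, although MLX was under 10 normalised counts in some libraries. Depth was 8.95 to 11.9 M reads (M, mega) for untreated, 4.67 to 6.95 for DAC, 8.36 to 10.7 for ATRA and 5.61 to 7.16 for DAC+ATRA, so low genes were counted least well after DAC. DAC replicate 3 differed more from the other DAC libraries than these did from each other, with a chi-square per degree of freedom of 14.0 and 21.7 against 4.36.

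Of 12 myeloid markers, CSF2RA was listed at 0 throughout. This does not show its absence, because reads that fit several transcripts appear to be left out. The other 11 markers had reads in every library. Their summed level was 69783 to 78287 normalised counts in untreated, 181397 to 222272 after DAC, 22316 to 27622 after ATRA and 67733 to 72240 after DAC+ATRA. LYZ, the lysozyme gene, made up most of the difference from untreated in this sum after DAC and after ATRA, with means of 41628 in untreated, 153287 after DAC, 6819 after ATRA and 40819 after DAC+ATRA. Among the myeloid markers with reads, CD33 (549 and 372), SPI1 (403 and 341) and MEIS1 (612 and 255) had a higher mean after ATRA than in untreated. All the rest had a lower mean after ATRA, among them LYZ and CEBPA (6063 and 15377). The 10 markers of T, B, erythroid, epithelial and fibroblast cells summed to 25.1 to 33.3 in untreated, 51.2 to 73.7 after DAC, 88.7 to 112 after ATRA and 93.8 to 120 after DAC+ATRA, with KRT19 and COL1A2 among those at 0 in all libraries. Both sums differed between the groups, and their part in the changes below was not tested. These are bulk values, so fewer cells that express a gene and less RNA per cell cannot be told apart.

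Across the network, MYC and 2 of its antagonists, MXD1 and MXI1, were lower after ATRA than in untreated cells, and another antagonist, MXD4, was higher. With ATRA, 4 of the 9 members were called, 1 higher and 3 lower, where 26% of all genes tested were called (12.1% higher and 14% lower). With DAC+ATRA 5 were called, MXD4 and MLXIP higher and MYC, MXD1 and MXI1 lower, against 28.9% of all genes (14.5% higher and 14.4% lower). With DAC alone limma called 0 of 9, against 7.97% of all genes (4.29% higher and 3.67% lower). However, 3 members (MYC, MXD4 and MXI1) had an unadjusted p under 0.05. DESeq2 on the recovered reads called 2 (MXD4 and MXI1) and edgeR called 0, against 11.3% and 8.96% of all genes. MAX, MXD3, MNT and MLX were called in none of these 3 comparisons, which share their untreated libraries.

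**Figure D1:**
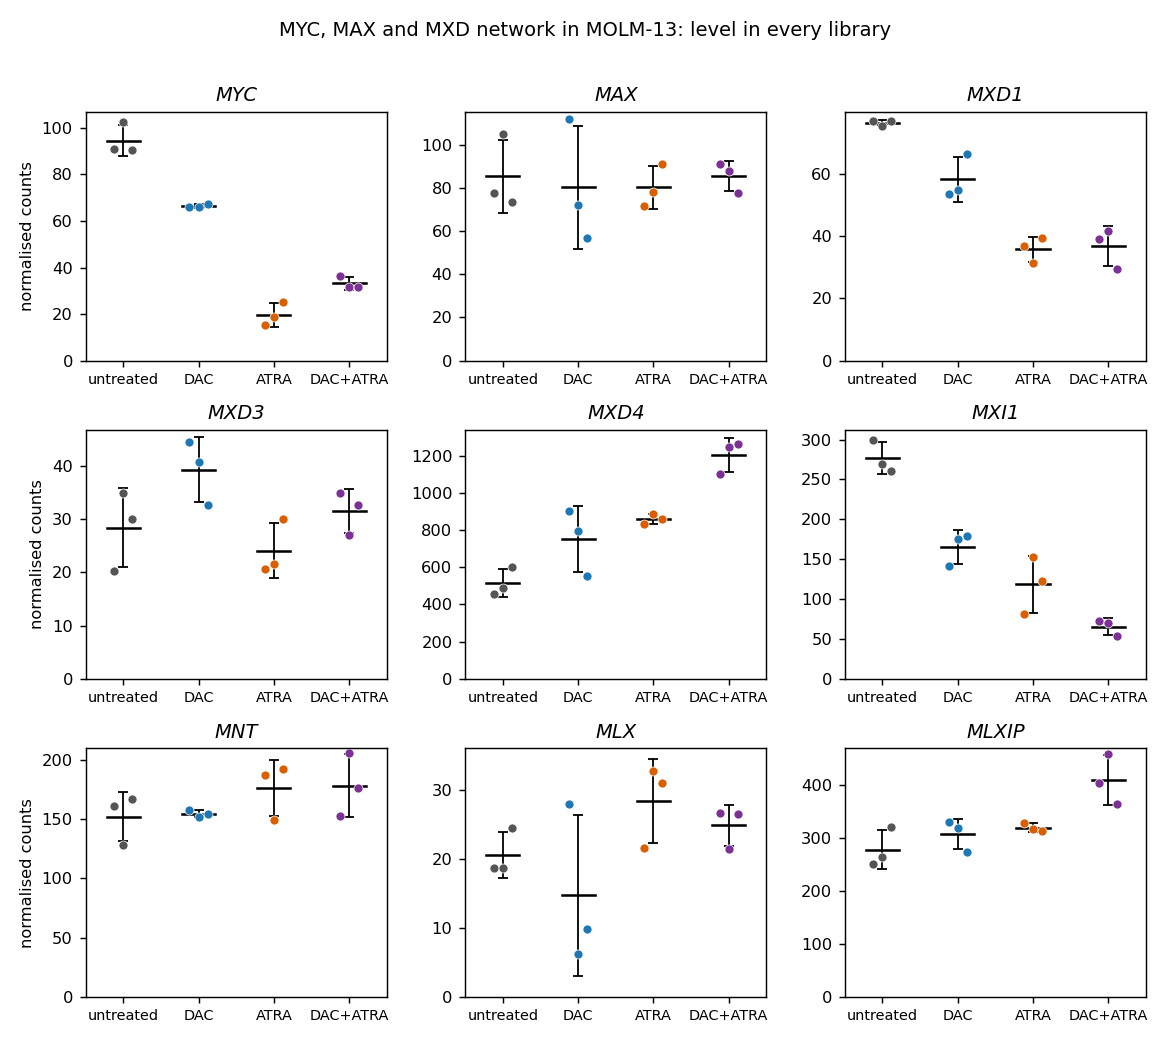
Normalised counts (linear axis from 0, a scale of its own for each gene) of the 9 members in the 4 groups; points are libraries, the horizontal bar is the mean and the error bar the SD of 3 libraries. MYC is lowest after ATRA (15.2 to 25.1), MXD4 is highest after DAC+ATRA (1100 to 1265) and MXI1 is lowest after DAC+ATRA (53.1 to 72.8).

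MYC, the activating member, is encoded on chromosome 8. Untreated libraries held 91.0, 102 and 90.3 normalised counts, DAC libraries 66.2, 65.9 and 67.5, ATRA libraries 15.2, 18.6 and 25.1, and DAC+ATRA libraries 36.4, 31.5 and 31.7. The 4 groups did not overlap, and their order was untreated, DAC, DAC+ATRA and then ATRA. These levels rest on 117 to 144 reads per untreated library, 42 to 62 with DAC, 17 to 30 with ATRA and 26 to 31 with DAC+ATRA.

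With ATRA, MYC fell by 2.24 on the log2 scale (SE 0.23, adjusted p 2.255e-07), which left 21.2% of the untreated level on that scale. With DAC+ATRA it fell by 1.48 (adjusted p 3.69e-05), to 35.8%. Neighbours in the order of levels were less clearly apart. DAC against untreated gave -0.50 (95% interval -0.98 to -0.02, adjusted p 0.156) and did not pass. Within the DAC-treated cells, adding ATRA lowered MYC by a log2 change of -0.98 (adjusted p 0.00282), a call that was lost without DAC+ATRA replicate 2 (adjusted p 0.0132) or replicate 3 (adjusted p 0.0134). Within the ATRA-treated cells, the change with DAC was 0.75 (95% interval 0.27 to 1.23, adjusted p 0.0244), with no overlap of the libraries but not called. The MYC level after both drugs was thus on average above that after ATRA alone, by an amount that missed the threshold.

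MAX, the partner shared by MYC and its antagonists, lies at chr14:65006174-65102695 (GRCh38, minus strand). It measured 77.8, 105 and 73.4 normalised counts in untreated, 112, 72.1 and 56.6 after DAC, 71.7, 78.1 and 91.1 after ATRA, and 91.0, 87.8 and 77.6 after DAC+ATRA. All groups overlapped. Its log2 change was -0.08 with ATRA (95% interval -0.56 to 0.41) and 0.02 with DAC+ATRA (95% interval -0.47 to 0.50), so shifts of up to about these bounds could not be seen at this depth.

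MXD1 (chr2:69897688-69942945, plus strand) encodes the MAX-binding repressor best known for its rise in maturing myeloid cells. Here its RNA was lower in both groups with ATRA. Untreated libraries had 76.99, 75.5 and 77.2 normalised counts, DAC libraries 53.4, 54.9 and 66.4, ATRA libraries 36.7, 31.3 and 39.3, and DAC+ATRA libraries 39.2, 41.6 and 29.6. The ATRA and DAC+ATRA libraries overlapped with each other and lay below every DAC and untreated library. MXD1 fell by 1.08 on the log2 scale after ATRA (SE 0.22, adjusted p 0.000618) and by 1.05 after DAC+ATRA (adjusted p 0.000772). The change with DAC was -0.40 (adjusted p 0.251), and between DAC+ATRA and ATRA it was 0.03 (95% interval -0.43 to 0.49).

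MXD4 (chr4:2247432-2262109, minus strand) encodes a further MXD repressor and was counted on 507 to 1239 reads per library. Its values were 456, 487 and 599 normalised counts in untreated, 902, 795 and 555 after DAC, 834, 887 and 860 after ATRA, and 1100, 1245 and 1265 after DAC+ATRA. The DAC+ATRA libraries lay above all others, and the ATRA libraries above all untreated libraries, while DAC replicate 3 fell among the untreated. MXD4 rose by a log2 change of 0.75 after ATRA (SE 0.15, adjusted p 0.000502) and 1.23 after DAC+ATRA (adjusted p 2.12e-06), to 235% of the untreated level. ATRA on top of DAC added 0.71 (adjusted p 0.00127). DAC alone gave 0.53 (adjusted p 0.0208) and was not called by limma, but without DAC replicate 3 the change was 0.73 and passed (adjusted p 0.000153). DAC on top of ATRA gave 0.48 (adjusted p 0.0271), which was not called with all libraries and was called without DAC replicate 3 (adjusted p 0.00192).

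MXI1 (chr10:110207605-110287365, plus strand) encodes an MXD family member that, like MXD1, was called lower with ATRA and with DAC+ATRA, where MXD4 was called higher. It had 299, 270 and 261 normalised counts in untreated, 141, 176 and 180 after DAC, 80.6, 153 and 122 after ATRA, and 72.8, 69.8 and 53.1 after DAC+ATRA. Each drug group lay below the untreated libraries, and the DAC+ATRA libraries below all others. MXI1 fell by 1.26 on the log2 scale after ATRA (SE 0.21, adjusted p 7.08e-05), and further, with a log2 change of -2.08 after DAC+ATRA (adjusted p 1.64e-07), to 23.7% of the untreated level. ATRA on top of DAC gave -1.33 (adjusted p 5.67e-05). DAC alone gave -0.74 (adjusted p 0.0186), which limma did not call, but which was called by DESeq2 (adjusted p 0.0033) and by limma without ATRA replicate 1 (adjusted p 0.00601). DAC on top of ATRA gave -0.82 (adjusted p 0.00778). This last call was lost in 14 of 23 alternative settings, over which the adjusted p ranged from 0.000619 to 0.0643. It was lost without any 1 of the 3 untreated libraries (adjusted p 0.0111 to 0.0133), DAC replicate 2 (0.01), ATRA replicate 2 (0.0643) or 3 (0.0355), or DAC+ATRA replicate 1 (0.0134), 2 (0.0183) or 3 (0.0512).

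The stretches before the starts of MXD4 and MXI1 are shown because these antagonists moved in opposite directions and 1 of the drugs acts on CpG methylation. They are the 250 bases upstream of a RefSeq start (GRCh38.p14), for MXI1 the first of 3 starts, where the entry with most of its reads begins, read 5′ to 3′ on the strand of the gene, with capitals for an E-box.
MXD4 (chr4:2262110-2262359, minus strand): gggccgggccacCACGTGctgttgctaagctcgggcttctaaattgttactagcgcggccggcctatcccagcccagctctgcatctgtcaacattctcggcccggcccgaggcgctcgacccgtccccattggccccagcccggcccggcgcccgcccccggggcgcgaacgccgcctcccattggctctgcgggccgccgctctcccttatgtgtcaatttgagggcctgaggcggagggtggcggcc
MXI1 (chr10:110207355-110207604, plus strand): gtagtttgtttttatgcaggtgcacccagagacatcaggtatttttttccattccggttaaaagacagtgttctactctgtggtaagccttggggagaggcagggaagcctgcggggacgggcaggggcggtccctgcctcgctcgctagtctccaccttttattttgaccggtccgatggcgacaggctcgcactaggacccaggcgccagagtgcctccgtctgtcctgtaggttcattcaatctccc
The MXD4 stretch holds 26 CpG dinucleotides and the MXI1 stretch 12, against a median of 11 (quartiles 3 and 23) over 35116 RefSeq promoter stretches of this length. Those of MXD1, MXD3, MLXIP, MNT and MLX hold 16, 10, 32, 35 and 30, and those of MAX 15 and 18. With DAC alone limma called neither MXD4 nor MXI1, and methylation was not measured in these libraries. The stretches before the other two starts of MXI1 hold 28 and 24, so the pair printed does not stand for all starts of MXI1. MXD4 has 1 E-box, at position -238 counted from the start, and MXI1 has none before any of its 3 starts. The search was for CACGTG, which reads the same on either strand, and 6.34% of all 35116 stretches hold it. Of the other members, MNT and MLX each had 1, at -193 and -50, and the 30 bases around these are shown because they carry the motif that the network's own dimers bind.
MNT (within chr17:2401061-2401310, minus strand): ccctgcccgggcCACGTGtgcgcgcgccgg
MLX (within chr17:42566850-42567099, plus strand): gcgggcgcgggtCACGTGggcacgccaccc
MXD1, MXD3, MLXIP and MAX had none in the stretches held by RefSeq, and MYC was not searched. For MAX and MXD3 these are not the stretches before the entries with most reads, which were not searched in full. The first MAX stretch has 230 of its 250 bases in exons. The entry nearest to that start held 0 reads, and no entry begins close to the other MAX start. The MXD3 stretch lies before an entry with 12.8% of the MXD3 reads. Neither the E-box search nor the CpG counts of MAX and MXD3 thus describe their main entries. A match describes letters in a window and no binding was measured.

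MXD3 (chr5:177301461-177312757, minus strand), a repressor of the MXD group that is best known from dividing cells, was counted on few reads. It had 20.2, 34.9 and 30.1 normalised counts in untreated, 44.5, 40.8 and 32.7 after DAC, 20.6, 21.6 and 30.1 after ATRA and 35.0, 27.0 and 32.7 after DAC+ATRA. The drug groups overlapped the untreated libraries, and with 23 to 48 reads per library no comparison was called. Its log2 change of 0.48 with DAC had a 95% interval of -0.11 to 1.07.

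MNT (chr17:2384073-2401104, minus strand) encodes the broadly expressed MAX-binding repressor. It had 161, 128 and 167 normalised counts in untreated, 158, 152 and 155 after DAC, 187, 150 and 192 after ATRA, and 153, 206 and 177 after DAC+ATRA. The groups overlapped throughout. The log2 changes were 0.04 with DAC (95% interval -0.31 to 0.38), 0.21 with ATRA (95% interval -0.13 to 0.56) and 0.23 with DAC+ATRA (95% interval -0.11 to 0.57), and no comparison was called.

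MLX and MLXIP form the glucose-responsive branch. MLX (chr17:42567072-42573239, plus strand) had 18.7, 18.7 and 24.5 normalised counts in untreated, 28.0, 6.27 and 9.80 after DAC, 21.5, 32.7 and 30.9 after ATRA and 26.6, 21.4 and 26.5 after DAC+ATRA. Its DAC libraries spread from 4 to 22 reads, and no comparison was called. DAC+ATRA against DAC gave 0.97 (95% interval 0.12 to 1.82, adjusted p 0.082), and without DAC replicate 1 it passed at 1.54 (adjusted p 0.00265).

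MLXIP (chr12:122078756-122147344, plus strand) had 250, 263 and 321 normalised counts in untreated, 329, 318 and 274 after DAC, 329, 316 and 314 after ATRA, and 405, 458 and 365 after DAC+ATRA. The DAC+ATRA libraries lay above all others. MLXIP rose by a log2 change of 0.56 with DAC+ATRA (SE 0.13, adjusted p 0.00259). This call was lost without untreated replicate 1 (adjusted p 0.0191), untreated replicate 2 (0.0164) or DAC+ATRA replicate 2 (0.0225). The changes with DAC (0.15) and with ATRA (0.21) were not called.

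**Figure D2:**
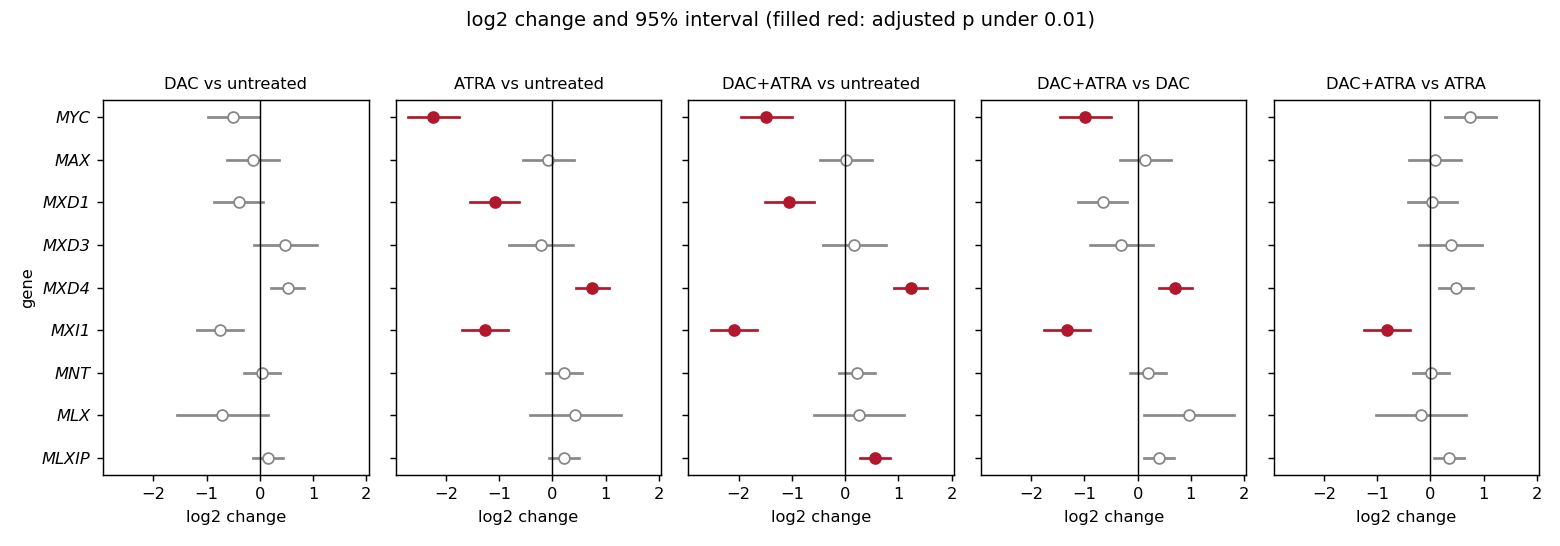
log2 change (horizontal axis, shared) of each member in 5 comparisons, with the 95% interval from limma as a line; filled red marks an adjusted p under 0.01 and open grey the rest. MYC, MXD1 and MXI1 lie left of 0 and MXD4 right of 0 with ATRA and with DAC+ATRA, and in the comparison of DAC+ATRA with ATRA only MXI1 is filled.

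ATRA on top of DAC led to 3 called members, MXD4 higher and MYC and MXI1 lower, against 18.8% of all genes tested (9.04% higher and 9.74% lower). MXD1 (-0.66, adjusted p 0.0308) and MLXIP (0.41, adjusted p 0.0279) did not overlap between these groups but were not called. DAC on top of ATRA led to 1 called member, MXI1, against 11.9% of all genes (6.47% higher and 5.46% lower). The interaction, the DAC effect in the presence of ATRA minus the DAC effect without it, was called for 0 of 9 members by limma, DESeq2 and edgeR, against 1.6% of all genes (0.724% higher and 0.874% lower), and 1 member, MYC, had an unadjusted p under 0.05. For MYC it was 1.25 (95% interval 0.57 to 1.93, adjusted p 0.0355). The interaction of MXD4 was -0.05 (95% interval -0.49 to 0.40) and that of MXI1 -0.07 (95% interval -0.68 to 0.54), so for these genes a deviation from the sum of the single-drug changes beyond those bounds was not seen.

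Because MYC and its antagonists share MAX, the distance between them on the log2 scale was also followed. From untreated to ATRA, the mean log2 ratio of MYC to MXD4 changed by -2.99, that to MNT by -2.45, that to MXD3 by -2.02, that to MXD1 by -1.15 and that to MXI1 by -0.97. From untreated to DAC+ATRA, it changed by -2.72 for MXD4, by -1.71 for MNT, by -1.66 for MXD3 and by -0.43 for MXD1, but by 0.60, upward, for MXI1. After both drugs, MXI1 was thus the 1 antagonist of these 5 with a change above 0. These are changes of a ratio and are given without a test. Levels of different genes were not compared, because the reads of a gene were counted on unequal lengths of sequence.

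The table counts reads per transcript, and reads that fit several transcripts appear to be left out. An entry's count thus depends on its unshared bases, those found in no other transcript of the gene. Shares of reads can be compared between groups, but do not give the use of transcripts or starts. By the annotation, MYC-206 (there in another version) has 1517 unshared bases, MYC-201 248 and MYC-210 66. The other MYC entries have 0, so their lack of reads does not show that these transcripts were absent. MYC had 8 entries, of which 3 held reads. MYC-206 held 73.7% of them over all libraries, and had 64.5, 81.2 and 64.0 normalised counts in untreated, 50.9, 45.5 and 58.8 after DAC, 11.7, 11.2 and 22.6 after ATRA and 16.8, 21.4 and 24.5 after DAC+ATRA. In this entry the ATRA and DAC+ATRA libraries overlapped. MYC-201 had 8.55, 12.99 and 11.3 in untreated, 7.63, 14.1 and 6.53 after DAC, 0, 1.49 and 0 after ATRA, and 8.40, 7.88 and 4.08 after DAC+ATRA. A count of 0 in an ATRA library allows up to 3 reads, that is 2.69 and 2.51 normalised counts in replicates 1 and 3, which covers counting error only. MYC-201 thus made up 11.6% of the MYC reads in untreated, 14.2% after DAC, 2.53% after ATRA and 20.4% after DAC+ATRA, and it was lower in every ATRA library than in any other library. MYC-210 had 13.7 ± 5.03 in untreated, 5.36 ± 2.84 after DAC, 4.01 ± 1.76 after ATRA and 5.50 ± 4.95 after DAC+ATRA. These entries were not tested one by one, and were singled out after their values were seen.

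MXI1 had 23 entries, of which 7 held reads. Of its reads, 94.3% lay in MXI1-202, the entry that begins at the upstream stretch shown above. MXI1-202 has 502 unshared bases and MXI1-201 91, so this share does not show which start was used more. MXI1-202 had 295, 259 and 254 normalised counts in untreated, 126, 160 and 177 after DAC, 70.8, 135 and 116 after ATRA and 64.4, 61.9 and 51.1 after DAC+ATRA. Most of the fall of MXI1 lay in this entry. MXI1-201, which begins further downstream, had 1.56, 5.68 and 2.51 in untreated, 12.7, 14.1 and 0 after DAC, 9.86, 15.6 and 5.85 after ATRA and 8.40, 6.75 and 2.04 after DAC+ATRA. Its libraries after DAC and DAC+ATRA overlapped the untreated ones, while those after ATRA lay above them by a margin under 1 read. The nearest were 5.85 in ATRA replicate 3 and 5.68 in untreated replicate 2, where 1 read makes up 0.836 and 0.812 normalised counts. Its share of MXI1 reads was 1.17% in untreated, 5.41% after DAC, 8.82% after ATRA and 8.79% after DAC+ATRA.

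Reads of MXD4, MNT, MLX and MLXIP lay almost wholly in 1 entry each. MXD4 had 1 entry, MNT-201 held 99.7% of the MNT reads, MLX-201 93.9% of those of MLX and MLXIP-201 92.5% of those of MLXIP. MXD1 reads lay in MXD1-201 and MXD1-206, and the share of MXD1-201 was 80.8% in untreated, 82.2% after DAC, 78.5% after ATRA and 83.0% after DAC+ATRA. MAX-202 went in share from 57.7% in untreated to 67.0% after DAC+ATRA while MAX-201 went from 32.9% to 24.2%, with libraries that overlapped for each entry. The few reads of MXD3 were spread over 4 entries, with 37.0% in MXD3-203, 33.4% in MXD3-201 and 16.8% and 12.8% in the other two. MXD3-203 went in share from 29.3% in untreated to 45.7% after DAC+ATRA and MXD3-201 from 42.6% to 29.5%, again with libraries that overlapped for each entry.

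**Figure D3:**
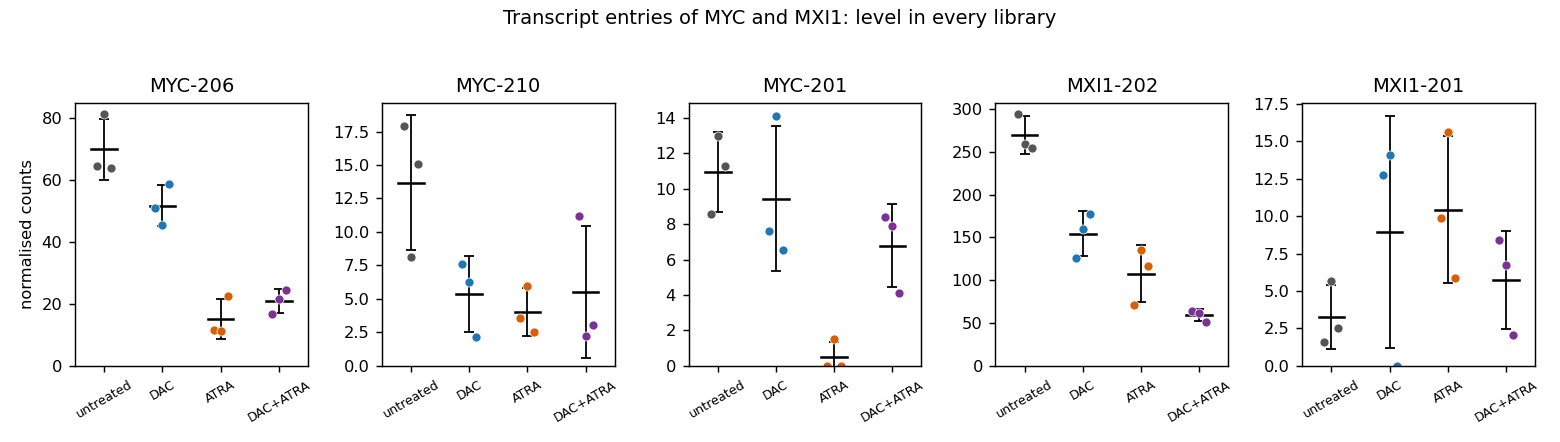
Normalised counts (linear axes from 0) of 3 transcript entries of MYC and 2 of MXI1 in the 4 groups; points are libraries, bars the mean and the SD of 3 libraries. MYC-201 is at 0 to 1.49 after ATRA and at 4.08 to 8.40 after DAC+ATRA, and MXI1-202 falls from 254 to 295 in untreated to 51.1 to 64.4 after DAC+ATRA.

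Each called member was set beside the genes with the most similar profile, by the root mean square (RMS) distance of log2 values over the 12 libraries, centred on the gene's mean. MYC, whose own RMS deviation was 0.88, was closest to PDGFC (0.22) and CD82 (0.23), which averaged 149 and 703 normalised counts in untreated, 32.2 and 158 after ATRA and 41.2 and 212 after DAC+ATRA. MXI1 (0.79) was closest to PDK1 (0.22) and H1-3 (0.22). MXD4 (0.48) was closest to MTA2 (0.12) and UVRAG (0.13), MXD1 (0.48) to USP14 and MTO1 (both 0.155), and MLXIP (0.24) to WIPI2 (0.10) and MIGA2 (0.11). Among the members themselves, MNT and MLXIP were the closest pair (0.20), followed by MXD4 and MLXIP (0.28). MXD4 stood 1.25 from MYC and 1.24 from MXI1. These distances compare profiles over the same 12 libraries and carry no test.

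The relatives of the members that are not in the set were MYCN, MYCL, MGA and MLXIPL. MYCN was listed at 0 in all libraries. MLXIPL, the ChREBP gene, rose from 7.46 ± 2.09 in untreated to 93.7 ± 10.2 after ATRA (log2 change 3.51, adjusted p 9.09e-09) and 82.2 ± 15.7 after DAC+ATRA (3.31, adjusted p 2.25e-08), and was 7.76 ± 1.19 after DAC. MYCL was 30.4 ± 3.04 in untreated and 56.7 ± 9.39 after DAC+ATRA (0.87, adjusted p 0.0176) and MGA 31.2 ± 5.37 and 39.8 ± 8.07 (0.34, adjusted p 0.313), neither of which was called. With DESeq2, or without DAC replicate 2, 2 of the 3 tested were called with DAC+ATRA. MLXIP, the other partner of MLX, changed by 0.21 with ATRA and was not called. In the lists that follow, written from general knowledge, genes under the filter were not tested, among them SMARCB1 and EIF4A1, which most cells use and which were listed at 0 in all libraries.

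Among 15 tested coactivators of MYC (16 listed), 5 were called with ATRA, 1 higher and 4 lower (33.3%, near the 26% of all genes), and 0 with DAC or with DAC+ATRA (7.97% and 28.9% of all genes). At an unadjusted p under 0.05 there were 0 with DAC and 4 with DAC+ATRA, and DESeq2 and edgeR called 0 in either. Without untreated replicate 1 or DAC replicate 3, 1 was called with DAC+ATRA. RUVBL1 and RUVBL2, ATPases of chromatin-remodelling complexes, fell with ATRA by 0.85 (adjusted p 8.74e-05) and 1.09 (adjusted p 9.5e-06) on the log2 scale. Both were higher after DAC+ATRA than after ATRA, by 0.75 (adjusted p 0.000768) and 0.67 (adjusted p 0.00323). CDK9, the kinase that releases paused RNA polymerase, rose with ATRA by 0.84 (adjusted p 8.17e-06), from 1071 ± 38.1 to 1922 ± 110, and stood at 1242 ± 92.5 after DAC+ATRA. The list median was -0.35 with ATRA and -0.10 with DAC+ATRA, beside -0.04 and 0.00 over all genes tested. The count of coactivators lower with ATRA was 2 without untreated replicate 2 or replicate 3.

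The SIN3 and histone deacetylase complex is what the MXD proteins recruit. The list written for it also holds HDAC3 and NCOR1, which are of a related corepressor complex. Of its 16 tested genes (18 listed), 5 were called with ATRA (3 higher and 2 lower) and 5 with DAC+ATRA (3 higher and 2 lower), shares near the 26% and 28.9% of all genes called, and 0 with DAC (6 at an unadjusted p under 0.05, 0 by DESeq2 and edgeR, and 1 without DAC replicate 3). SIN3B, a scaffold of the complex, rose from 56.7 ± 11.5 in untreated to 125 ± 10.3 after ATRA (1.14, adjusted p 9.76e-05) and 107 ± 6.83 after DAC+ATRA (0.93, adjusted p 0.000727). ING1, a reader of methylated histone tails, rose with ATRA (0.81, adjusted p 0.00218), and SAP30L rose with DAC+ATRA (0.62, adjusted p 0.00106). SAP30 and ING2, further subunits, fell by 1.26 and 1.23 with ATRA and by 1.37 and 1.28 with DAC+ATRA. The list medians were 0.10 (ATRA) and 0.13 (DAC+ATRA), beside -0.04 and 0.00 over all genes tested. The 3 genes higher with ATRA were 1 without untreated replicate 1 or without ATRA replicate 2.

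Because MYC protein is short-lived, genes for its modification and breakdown were listed as well, although no protein was measured. Of 19 tested (21 listed), 2 were called with DAC (0 higher and 2 lower), 4 with ATRA (1 higher and 3 lower) and 8 with DAC+ATRA (3 higher and 5 lower), with medians of -0.09, 0.10 and -0.10. Over all genes 7.97%, 26% and 28.9% were called, so the counts with DAC and with ATRA were near that background (10.5% and 21.1% of the list) and that with DAC+ATRA was 42.1% of the list. PIM1, a kinase that phosphorylates MYC, was lower with DAC (-0.78, adjusted p 4.72e-05) and higher with ATRA (0.69, adjusted p 4.56e-05), at 10919 ± 1009, 6356 ± 811, 17577 ± 1055 and 16602 ± 423 normalised counts in untreated, DAC, ATRA and DAC+ATRA. Its relative PIM3 fell with DAC (-0.65, adjusted p 0.00638). The mitotic kinases PLK1 and AURKA fell with ATRA by 1.27 and 0.91, and AURKA by 1.55 with DAC+ATRA. With DAC+ATRA the ubiquitin ligase subunit FBXL14 rose (0.81), and the deubiquitinase USP28 (-1.18, adjusted p 0.00486) fell. With ATRA the count was 2 without untreated replicate 2, untreated replicate 3, ATRA replicate 1 or ATRA replicate 3, and with DAC it was 1 in each of 6 fits without a library (untreated replicates 1 to 3, DAC replicate 2, DAC+ATRA replicates 1 and 3).

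Of 38 tested genes (41 listed) commonly given as activated by MYC, 0 were called higher and 13 lower with ATRA (34.2% of the list, where 14% of all genes were called lower), and 35 had a negative change, with a median log2 change of -0.48 beside -0.04 over all genes tested. With DAC+ATRA 1 was called higher and 8 lower, with a median of -0.08 beside 0.00. This was 23.7% of the list, where 28.9% of all genes were called (14.5% higher and 14.4% lower). DAC called 0, with 7 at an unadjusted p under 0.05 and 0 called by DESeq2 and edgeR, where 7.97% of all genes were called. Without DAC replicate 3 it called 3 higher and 1 lower, and without DAC replicate 1 it called 1 lower. EIF4EBP1, which holds back translation initiation, fell from 3128 ± 346 in untreated to 1099 ± 130 after ATRA (-1.51, adjusted p 1.19e-08), and the mitochondrial serine pathway enzyme SHMT2 fell from 139 ± 26.8 to 46.2 ± 1.43 (-1.56, adjusted p 0.000118). With DAC+ATRA the ribosome factor BOP1 rose (0.54, adjusted p 0.00384), while SHMT2 (-1.05) and LDHA (-1.74, adjusted p 9.47e-06), which makes lactate, fell. Leaving out single libraries moved the 13 lower with ATRA between 10 and 19.

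In DAC+ATRA against ATRA, 7 of these 38 genes were called higher and 1 lower (LDHA), where 6.47% and 5.46% of all genes were called, and 33 had a positive change, with a median of 0.48 beside 0.03 over all genes. The count of higher genes depended on single libraries. It was 13 without DAC replicate 3 or ATRA replicate 1, 3 without ATRA replicate 2, and 4 without ATRA replicate 3 or DAC+ATRA replicate 2. CCND2, a cyclin that drives entry into S phase, was the only gene of the list called in the interaction (1.45, adjusted p 3.44e-06), and is named after its values were seen. It had 1531 ± 22.1 normalised counts in untreated, 1605 ± 99.8 after DAC, 583 ± 33.5 after ATRA and 1667 ± 34.3 after DAC+ATRA. MYC itself was 66.5 ± 0.87 after DAC and 33.2 ± 2.78 after DAC+ATRA, so CCND2 and MYC did not share an order of groups. ATRA on top of DAC left 0 of the 38 higher and 7 lower, with a median of -0.14 beside 0.00. This was 18.4% of the list, near the 18.8% of all genes called (9.04% higher and 9.74% lower).

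Genes commonly listed as repressed by MYC moved in either direction. Of 13 tested (15 listed), 6 were higher and 3 lower with ATRA, 3 higher and 5 lower with DAC+ATRA and 0 higher and 4 lower with DAC, with medians of 0.30, -0.19 and -0.34. Over all genes 12.1% were called higher and 14% lower with ATRA, 14.5% and 14.4% with DAC+ATRA, and 4.29% and 3.67% with DAC. THBS1, a secreted inhibitor of vessel growth, had 106 ± 12.2 normalised counts in untreated, 37.0 ± 11.6 after DAC, 3790 ± 437 after ATRA and 7645 ± 290 after DAC+ATRA, with log2 changes of -1.53, 5.15 and 6.16. CEACAM1, an adhesion receptor, was at 0 in all untreated and DAC libraries and had 40.3, 32.0 and 41.0 with ATRA and 12.6, 7.88 and 18.4 with DAC+ATRA, at least 17.0-fold and 5.84-fold higher than a floor of 3 reads per untreated library, and the list medians stay at 0.30 and -0.19 with CEACAM1 at these bounds. KLF6, a zinc finger factor, fell with DAC (-0.88, adjusted p 0.00369). PMP22 (-2.75) and the myeloid factor CEBPA (-1.34) fell with ATRA. The CDK inhibitor gene CDKN1B fell with DAC+ATRA (-1.23, adjusted p 1.05e-08), as did the stress gene GADD45B (-0.95). The 4 lower with DAC became 2 without untreated replicate 2, and 1 when only the DAC and untreated libraries were fitted.

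Targets of MLXIP and MLX formed a short list, with 8 of 9 tested. With DAC 1 was called higher and 3 lower, with ATRA 1 higher and 3 lower, and with DAC+ATRA 0 higher and 6 lower, with medians of -0.69, -0.03 and -0.92. Over all genes 7.97%, 26% and 28.9% were called in these comparisons. TXNIP, a brake on glucose uptake and the best known of them, had 13328 ± 172 normalised counts in untreated, 6084 ± 639 after DAC, 16990 ± 3342 after ATRA and 7053 ± 67.8 after DAC+ATRA, and fell with DAC (-1.14, adjusted p 3.31e-06). RGS16, a regulator of G protein signalling, fell with each treatment, with log2 changes of -2.55 (DAC), -0.97 (ATRA) and -1.64 (DAC+ATRA). KLF10, a TGF-beta-induced repressor, rose with ATRA (2.15, adjusted p 3.94e-06) from 103 ± 19.7 to 459 ± 84.0 and fell with DAC+ATRA (-1.61, adjusted p 0.000112) to 33.2 ± 8.35. DAC on top of ATRA called 1 higher and 5 lower of the 8, where 6.47% and 5.46% of all genes were called, and the 5 lower became 3 without ATRA replicate 2. Over the same comparison MLXIP changed by 0.35 and MLX by -0.17, neither called.

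**Figure D4:**
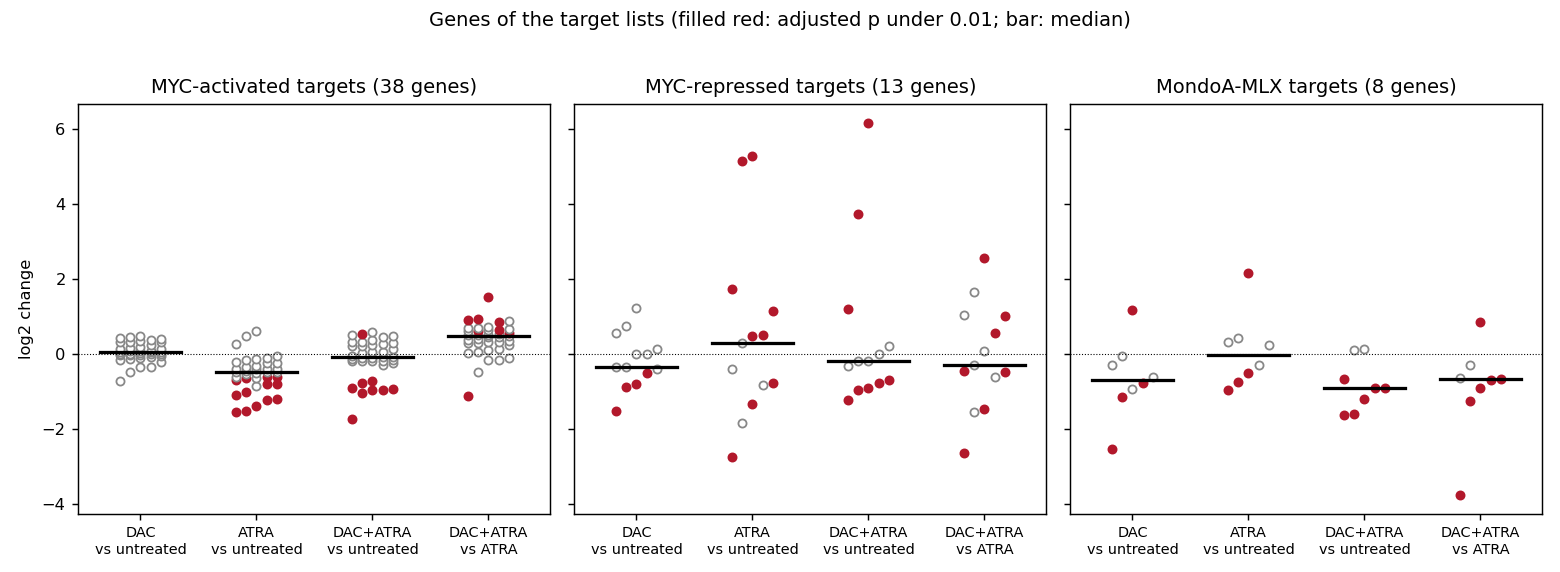
log2 change of each tested gene of 3 target lists in 4 comparisons; each point is a gene, filled red where the adjusted p was under 0.01, the black bar is the list median and the dotted line marks 0. The bar of MYC-activated targets lies at -0.48 for ATRA against untreated and at 0.48 for DAC+ATRA against ATRA, which share the ATRA libraries.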

How the data were processed

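After removal of ribosomal RNA, the authors made stranded paired-end libraries. Per the labels, FastQC, STAR with hg38, HTSeq and DESeq2 were used. Tool versions and the annotation release are not given in the sources used here. The deposited values are a normalised signal, that is counts divided by 1 size factor per library, and 100% of them were whole multiples of a step within 0.001, so reads could be recovered. Untreated libraries are those whose columns carry the name CTRL. Entries were summed per gene symbol. Gene positions and transcript names come from GENCODE release 44 (GRCh38), which matched 88.9% of entries and 57 of the 61 of the members. Counting per transcript appears to leave out reads that fit several transcripts, so levels are lower limits.

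The main test was limma 3.58.1 (lmFit and eBayes with trend, R 4.3.3) on log2(normalised count + 1), with all 12 libraries in 1 fit, for protein-coding genes that reached 10 normalised counts in 3 or more libraries. A change on this scale understates that of low genes. Adjusted p is Benjamini-Hochberg over all genes tested, with a threshold of 0.01, and the test was tried on simulated data. Alternatives included tests on recovered reads (DESeq2 1.42.0, edgeR 4.0.16 with TMM). Replicate numbers did not pair the libraries. The members and lists were chosen with earlier results of these data known. All members are named, with at most 2 genes per direction, list and treatment, chosen by the size of the change among called genes, and the 2 genes nearest in profile to each called member. A few genes that this rule or the marker list would name are not reported here.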

Additional observations from a re-analysis of the deposited data

Results flagged for a closer look

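MYC stood out because its libraries with DAC lay below those without DAC in the absence of ATRA and above them in its presence. Neither change was called by limma (log2 change -0.50, adjusted p 0.156, and 0.75, adjusted p 0.0244). Every DAC library (65.9 to 67.5 normalised counts) lay below every untreated library (90.3 to 102), and every DAC+ATRA library (31.5 to 36.4) lay above every ATRA library (15.2 to 25.1). In MYC-206, the entry with 73.7% of the MYC reads, the ATRA and DAC+ATRA libraries overlapped. The difference of the log2 changes was 1.25 (limma, adjusted p 0.0355), which did not pass the threshold of 0.01, and it ranged from 0.92 to 1.43 with an adjusted p from 0.0201 to 0.31 over 23 alternatives.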

How the results depend on the processing

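No member log2 change turned its direction where it had been called: of 1284 values over 24 alternatives, 1251 kept their side of the threshold, 19 lost the call and 14 gained it. Of the 9 members, DAC called 2 with DESeq2, 2 at an adjusted p under 0.05, and 0 to 1 when each library was left out in turn. Over all genes the shares called were 11.3%, 15.4% and 4.78% to 13%. DAC+ATRA against DAC called 5 at an adjusted p under 0.05, where 28.7% of all genes were called. DAC+ATRA against ATRA called 3 at an adjusted p under 0.05, where 21.1% of all genes were called. It called 0 with scaling to the total protein-coding count (12.5% of all genes) and 0 without the filter on low values (7.96%). It called 0 with the most abundant transcript alone (11.6%), and 0 to 2 when each library was left out (7.7% to 16.7%). The interaction called 1 at an adjusted p under 0.05, where 3.63% of all genes were called. With the replicate number as a block, DAC+ATRA against ATRA called 0 of 9 in place of 1, MXI1 having an adjusted p of 0.011, and no other count of members moved. Correlations of deviations ran from -0.263 to 0.114 for libraries with the same number and from -0.165 to 0.246 for others, so the numbers did not pair the libraries. Low depth limits MLX and MXD3 most, with as few as 4 and 23 reads in a library.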
